A study of Sus scrofa with 8 samples.

Results

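The SLC25 family of mitochondrial solute carriers was followed in hearts of miniature pigs given doxorubicin or vehicle. Members were chosen by name alone, as every row of the count table whose gene name begins with SLC25A, and this rule found 45 of 31014 rows. All 45 were protein-coding and were described in the deposited table as solute carrier family 25 members, and the start and end of all 45 matched the RefSeq annotation of the pig assembly Sscrofa11.1. Of the 45, 41 passed a filter on low counts and were tested, together with 14938 genes in all. SLC25A2, SLC25A18 and SLC25A52 were not analysed here.

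The doxorubicin group held 5 heart libraries of wild-type miniature pigs given this anthracycline cancer drug, and the vehicle group held 3 heart libraries of wild-type miniature pigs given vehicle. Strain, sex, age, dose, schedule and the part of the heart were not given in the sources used here. Separate animals are not stated for the libraries, so the p-values cover the spread among these libraries, which may be technical. The study's title concerns ERRα, a nuclear receptor that drives mitochondrial genes, and the comparison asks how carrier transcripts of doxorubicin hearts differed from those of vehicle hearts.

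SLC25 proteins sit mostly in the inner mitochondrial membrane and exchange metabolites between matrix and cytosol. In heart muscle they export ATP in exchange for ADP, bring in phosphate for ATP synthesis, carry acylcarnitines to fatty acid oxidation and move malate, aspartate and glutamate for the transfer of reducing equivalents from cytosolic NADH. Smaller carriers supply cofactors, amino acids, nucleotides and iron.

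Library totals ran from 17442566 to 18267178 counts in doxorubicin and from 16105242 to 17195538 in vehicle. Levels are given as CPM, counts per 1000000 counts of a library size adjusted by TMM, a scaling that assumes most genes do not differ. Its factors were 1.05 to 1.18 in doxorubicin libraries and 0.839 to 0.874 in vehicle libraries. Reads of mitochondrial DNA made up 8.70% to 16.6% of counts in doxorubicin and 23.6% to 27.5% in vehicle. Doxorubicin 5 resembled its group least, at a mean r of 0.912, while doxorubicin 1 to 4 gave 0.941 to 0.956 and vehicle 0.974 to 0.977. Cardiomyocyte markers were abundant, with none at 0. They summed to 37571 to 68276 CPM in doxorubicin and 66843 to 73761 CPM in vehicle, and 2 of 10 fell (PLN and RYR2) while 8 did not pass. Fibroblast markers summed to 2460 to 31363 CPM in doxorubicin and 1228 to 1435 CPM in vehicle, with 4 of 7 higher and 1 lower. Macrophage markers summed to 174 to 489 CPM in doxorubicin and 117 to 158 CPM in vehicle, with 4 of 7 higher. Markers of T and NK lymphocytes summed to 10.8 to 26.6 CPM in doxorubicin and 4.0 to 7.25 CPM in vehicle, with 4 of 4 higher. Markers of dividing cells summed to 14.2 to 33.2 CPM in doxorubicin and 5.43 to 8.6 CPM in vehicle, with 3 of 4 higher. Smooth muscle and pericyte markers summed to 574 to 4360 CPM in doxorubicin and 519 to 1160 CPM in vehicle, with 2 of 6 higher and 1 lower. Endothelial markers summed to 458 to 1386 CPM in doxorubicin and 1083 to 1412 CPM in vehicle, with 1 of 6 lower. Adipocyte markers summed to 0.808 to 2.40 CPM in doxorubicin and 4.02 to 25.6 CPM in vehicle, with 1 of 2 tested lower. Erythroid markers summed to 6.55 to 85.3 CPM in doxorubicin and 36.9 to 93.7 CPM in vehicle, and the 1 tested did not pass. The part of these marker shifts in the results on the carriers was not tested, and in bulk tissue fewer cells of a type cannot be told apart from less RNA per cell.

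In both groups a pair of carriers dominated the family per unit of gene length. SLC25A4, the ADP/ATP carrier of muscle, stood at 1675 ± 547 CPM per kilobase in doxorubicin and 2126 ± 427 in vehicle (SD, n = 5 and n = 3). SLC25A3, which carries phosphate and copper, followed with 1287 ± 277 CPM per kilobase in doxorubicin and 1833 ± 206 in vehicle. The ranges of mean ± SD of these neighbours in the order overlapped in both groups, and the genes were not compared within libraries. SLC25A6, another ADP/ATP carrier, ranked 3 in both groups, with 328 ± 76.7 CPM per kilobase in doxorubicin and 161 ± 39.2 in vehicle. SLC25A11, the exchanger of 2-oxoglutarate and malate, ranked 4, with 116 ± 32.4 CPM per kilobase in doxorubicin and 87.6 ± 17.4 CPM per kilobase in vehicle. SLC25A12, the aspartate/glutamate carrier of muscle and brain, ranked 5 in doxorubicin (48.2 ± 19.0 CPM per kilobase) and 6 in vehicle (74.7 ± 1.58). SLC25A30, a relative of the uncoupling proteins, ranked 6 in doxorubicin (39.5 ± 15.1 CPM per kilobase) and 5 in vehicle (79.8 ± 5.21). The ranges of mean ± SD of SLC25A12 and SLC25A30 overlapped in both groups, again without a comparison within libraries. At the low end SLC25A41 had 0.235 ± 0.102 CPM per kilobase in doxorubicin and 0.216 ± 0.0566 in vehicle. The other 4 members had too few reads to be tested. SLC25A45 had 15 reads in doxorubicin and 4 in vehicle, SLC25A48 had 14 in doxorubicin and 6 in vehicle, and SLC25A53 had 10 in doxorubicin and 6 in vehicle. SLC25A31, the ADP/ATP carrier of testis, had 1 read in doxorubicin and 0 in vehicle.

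**Figure D1:**
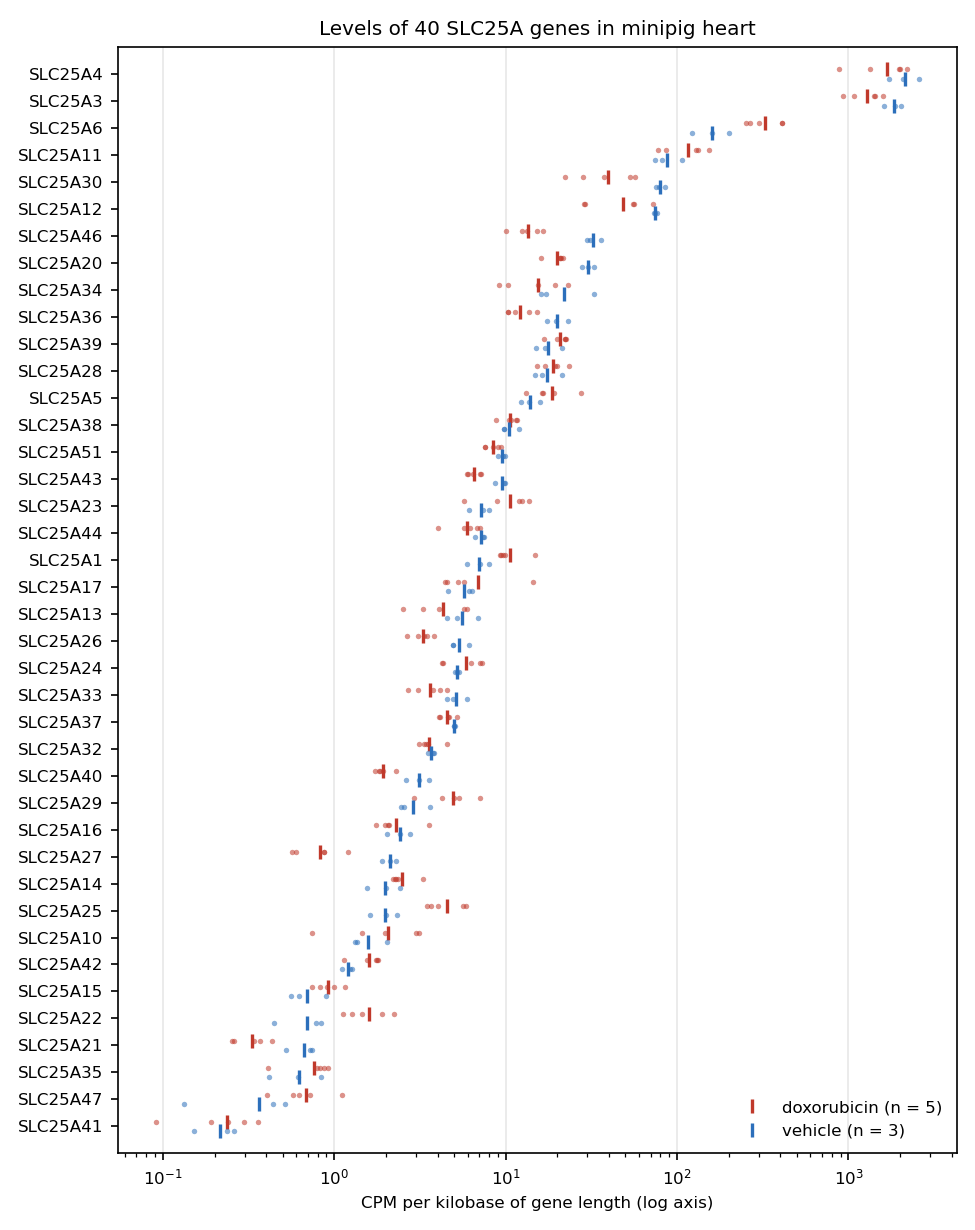
Levels of 40 tested SLC25A genes as CPM per kilobase of gene length on a log axis, with 1 point per library and a vertical bar for the group mean, doxorubicin above vehicle in each row. SLC25A4 and SLC25A3 stand far to the right of the other carriers in both groups, and SLC25A41 is the lowest gene.

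The family as a whole summed to 7098, 6801, 4078, 7614 and 5198 CPM in doxorubicin 1 to 5, against 6769, 8875 and 7740 CPM in vehicle 1 to 3. The means were 6158 ± 1472 CPM in doxorubicin and 7795 ± 1054 CPM in vehicle, and the groups overlapped. SLC25A4 and SLC25A3 supplied 72.0% ± 3.94 of this sum in doxorubicin and 76.2% ± 2.10 in vehicle. Without them the sum was 1683 ± 233 CPM in doxorubicin and 1838 ± 87.1 CPM in vehicle. Scaled by library size only, the whole sum was 6700 ± 1389 CPM in doxorubicin and 6670 ± 820 CPM in vehicle.

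Single carriers went in both directions after doxorubicin. Of the 41 tested, 3 rose (SLC25A6, SLC25A25 and SLC25A22), 9 fell (SLC25A27, SLC25A46, SLC25A30, SLC25A21, SLC25A36, SLC25A26, SLC25A40, SLC25A20 and SLC25A43) and 29 did not pass edgeR's quasi-likelihood test at a Benjamini-Hochberg adjusted p of 0.05. The 12 calls made up 29.3% of tested members, against 24.9% of all tested genes. Higher calls were 7.32% of members against 13.6% of all tested genes, and lower calls were 22.0% of members against 11.3%. The median log2 fold change was -0.02 for the members and 0.02 for all tested genes. In all 12 called members the groups did not overlap in CPM. Non-overlapping groups were found for 15 of the 41 (36.6%), against 34.9% of all tested genes.

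How many carriers passed in each direction changed with the scaling and with single libraries. Scaled by library size only, all tested genes had a median log2 fold change of 0.38, and 11 members passed as higher and 2 as lower, against 27.4% higher and 3.34% lower of all tested genes. All 12 calls kept their sign under that scaling, and SLC25A6, SLC25A25, SLC25A22, SLC25A27 and SLC25A46 also kept their call. The additional higher calls were SLC25A1, SLC25A5, SLC25A11, SLC25A15, SLC25A23, SLC25A29, SLC25A39 and SLC25A42. When the trend of each library with gene density was removed, 3 members were higher and 5 lower, against 10.4% and 8.80% of all tested genes. Without vehicle 1, 2 members passed, against 4.19% of all tested genes. Without vehicle 2, 7 passed, against 12.7%, and without vehicle 3, 3 passed, against 4.61%. Without doxorubicin 5, 7 members were higher and 9 lower, against 16.8% and 15.4% of all tested genes. SLC25A27 and SLC25A46 passed under each of the 18 alternatives run.

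**Figure D2:**
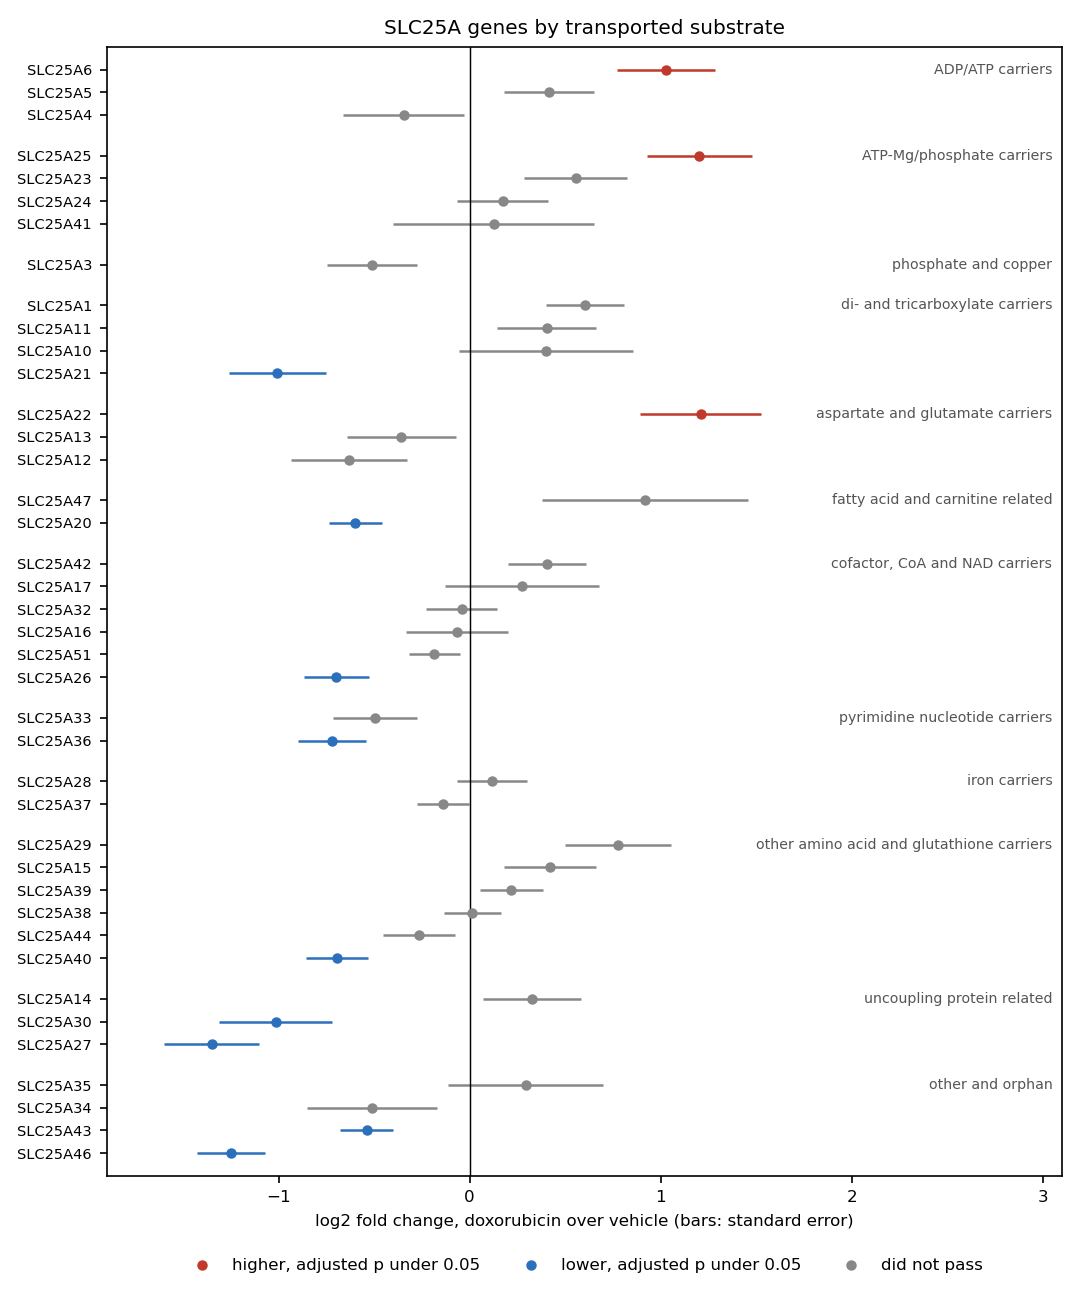
Log2 fold change of doxorubicin over vehicle for 40 tested SLC25A genes, grouped by what they carry, with bars for the standard error and colours for the outcome of the edgeR test. In the ADP/ATP group 1 of 3 genes rose, and in the group related to uncoupling proteins 2 of 3 fell.

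Among the ADP/ATP carriers 1 of 3 tested members rose. SLC25A6 (unplaced scaffold of Sscrofa11.1, 792985 to 795766) had 553, 364, 342, 408 and 560 CPM in doxorubicin 1 to 5, against 165, 272 and 218 CPM in vehicle 1 to 3. Every doxorubicin library lay above every vehicle library, and the gene was 2.04-fold higher (log2 fold change 1.03, SE 0.26, adjusted p = 0.0204). Its call was lost without vehicle 1 (adjusted p = 0.0985) or vehicle 3 (0.0865). SLC25A4, the main isoform of heart (chromosome 15, 46193498 to 46197989), had 3183, 3174, 1417, 3507 and 2134 CPM in doxorubicin 1 to 5, against 2765, 4127 and 3323 CPM in vehicle. The groups overlapped, with doxorubicin 3 and 5 below every vehicle library, and the log2 fold change was -0.34 (SE 0.32, adjusted p = 0.443). SLC25A5, the isoform known from dividing cells (chromosome X, 97919295 to 97922245), had 21.5, 21.3, 24.9, 17.2 and 35.9 CPM in doxorubicin, against 17.9, 15.9 and 20.5 CPM in vehicle. Doxorubicin 5 was the highest, the groups overlapped, and the log2 fold change of 0.41 (SE 0.24) did not pass (adjusted p = 0.212).

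The make-up of the ADP/ATP carrier pool was compared as shares of counts within each library. SLC25A4 held 84.7%, 89.2%, 79.5%, 89.2% and 78.2% of the counts of SLC25A4, SLC25A5 and SLC25A6 in doxorubicin 1 to 5, against 93.8%, 93.5% and 93.3% in vehicle 1 to 3. The vehicle libraries lay within a percentage point of each other and above every doxorubicin library. The means of 84.1% ± 5.21 in doxorubicin and 93.5% ± 0.249 in vehicle differed by -9.38 percentage points (SD, n = 5 and n = 3; two-sided exact permutation p = 0.0357, the smallest that 56 splits allow). Adjusted over the 3 shares tested, p was 0.107, so the difference did not pass. The adjusted test could have passed only if all 3 shares had reached the smallest p. It therefore cannot decide on this share. SLC25A6 made up 15.0% ± 4.79 of these counts in doxorubicin and 5.96% ± 0.310 in vehicle, and SLC25A5 made up 0.864% ± 0.455 in doxorubicin and 0.515% ± 0.134 in vehicle. The counts are not adjusted for gene length, and how reads that match more than 1 of these similar genes were counted is not given in the sources used here.

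**Figure D3:**
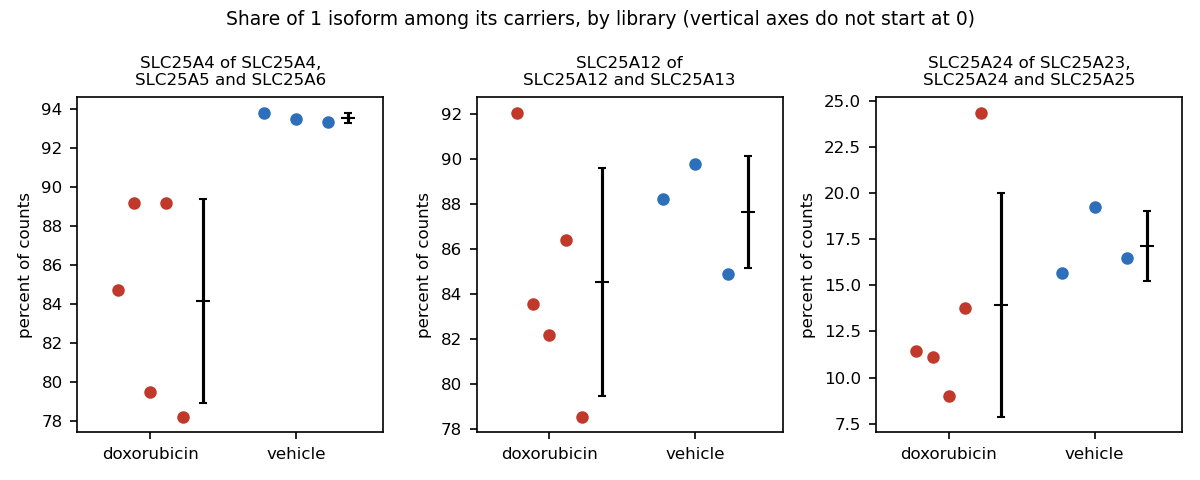
Share of counts held by SLC25A4 among SLC25A4, SLC25A5 and SLC25A6, by SLC25A12 among SLC25A12 and SLC25A13, and by SLC25A24 among SLC25A23, SLC25A24 and SLC25A25, with 1 point per library, doxorubicin left of vehicle, and bars for mean ± SD. The vertical axes do not start at 0. The groups are apart for SLC25A4 (78.2% to 89.2% in doxorubicin, 93.3% to 93.8% in vehicle) and overlap in the other panels.

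SLC25A3, the source of phosphate for ATP synthase (chromosome 5, 85284405 to 85292336), had 1971, 1978, 1287, 2225 and 1498 CPM in doxorubicin, against 2249, 2819 and 2586 CPM in vehicle. Every doxorubicin library was below every vehicle library, by a small margin for doxorubicin 4. The log2 fold change of -0.51 (SE 0.24) did not pass (adjusted p = 0.134).

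The ATP-Mg/phosphate carriers, which adjust the adenine nucleotide content of the matrix and of which all but SLC25A41 respond to calcium, had 1 of 4 members higher and 3 that did not pass. SLC25A25 (chromosome 1, 268531752 to 268575195) had 5.51, 8.84, 5.23, 8.46 and 6.05 CPM in doxorubicin, against 3.0, 3.47 and 2.42 CPM in vehicle. Doxorubicin 2 and 4 were the highest and the groups did not overlap. It was 2.30-fold higher (log2 fold change 1.20, SE 0.27, adjusted p = 0.0159), and this call was lost without vehicle 1 (0.0684) or vehicle 3 (0.0769). SLC25A23 stood at 48.9 ± 15.0 CPM in doxorubicin and 33.3 ± 4.35 CPM in vehicle. Doxorubicin 5, at 26.4 CPM, was below all vehicle libraries, and without it SLC25A23 passed as higher (log2 fold change 0.72, SE 0.17, adjusted p = 0.0127) where all libraries gave 0.55 (SE 0.27, adjusted p = 0.148). SLC25A24 made up 13.9% ± 6.07 of the counts of SLC25A23, SLC25A24 and SLC25A25 in doxorubicin and 17.1% ± 1.89 in vehicle (SD, n = 5 and n = 3; exact permutation p = 0.464, adjusted p = 0.464). SLC25A41 lies 1932 bases beyond SLC25A23 on the same strand of chromosome 2, with no other row between them, and had 0.643 ± 0.279 CPM in doxorubicin and 0.590 ± 0.154 CPM in vehicle.

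The carriers of the malate-aspartate shuttle did not pass. SLC25A11 (chromosome 12, 51970794 to 51973668) had 222, 228, 133, 263 and 148 CPM in doxorubicin, against 127, 184 and 140 CPM in vehicle. Doxorubicin 3 and 5 lay within the range of vehicle and the others above it (log2 fold change 0.40, SE 0.26, adjusted p = 0.267). SLC25A11 overlaps RNF167 on the other strand, which was higher (log2 fold change 0.69, SE 0.19, adjusted p = 0.0298), and whether the counting used strand is not given in the sources used here. SLC25A12 (chromosome 15, 77895935 to 78021930) had 183, 181, 95.3, 238 and 93.6 CPM in doxorubicin, against 243, 251 and 241 CPM in vehicle. The doxorubicin libraries spread widely, with 3 and 5 the lowest, but none reached the vehicle range (log2 fold change -0.63, SE 0.30, adjusted p = 0.147). SLC25A13, the aspartate/glutamate carrier typical of liver (chromosome 9, 75781421 to 75980606), had 15.7, 35.7, 20.7, 37.4 and 25.6 CPM in doxorubicin, against 32.4, 28.6 and 42.9 CPM in vehicle, and the groups overlapped (log2 fold change -0.36, SE 0.28, adjusted p = 0.372). SLC25A12 made up 84.5% ± 5.08 of the counts of SLC25A12 and SLC25A13 in doxorubicin and 87.6% ± 2.49 in vehicle (exact permutation p = 0.393, adjusted p = 0.464). Among the enzymes of this shuttle and of citrate use, taken as a list of 8, MDH1 fell (772 ± 277 CPM in doxorubicin and 1893 ± 98.7 CPM in vehicle, log2 fold change -1.29, SE 0.30, adjusted p = 0.0159) and 7 did not pass. With 1 library left out, the MDH1 call held in 5 of 8 fits (adjusted p up to 0.0666, without vehicle 3).

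SLC25A22, a glutamate carrier (chromosome 2, 491288 to 498773), had 5.84, 5.20, 8.73, 6.69 and 10.3 CPM in doxorubicin, against 3.86, 3.61 and 2.06 CPM in vehicle. Doxorubicin 5 and 3 were the highest and the groups did not overlap. The gene was 2.31-fold higher (log2 fold change 1.21, SE 0.32, adjusted p = 0.0247). Its call was lost after removal of the density trend (log2 fold change 0.70, adjusted p = 0.125), and without vehicle 1 (0.0679), vehicle 2 (0.0588), vehicle 3 (0.0998) or doxorubicin 3 (0.0514).

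Of the other di- and tricarboxylate carriers, SLC25A21 fell and SLC25A1 and SLC25A10 did not pass. SLC25A21, which carries 2-oxoadipate from lysine and tryptophan breakdown (chromosome 7, 62808126 to 63326634), had 4.80, 3.79, 2.90, 4.10 and 2.80 CPM in doxorubicin, against 8.29, 8.04 and 5.83 CPM in vehicle. All doxorubicin libraries were below all vehicle libraries (log2 fold change -1.01, SE 0.25, adjusted p = 0.0211). Its call was lost under library-size scaling (-0.66, adjusted p = 0.0660), without the density trend (0.0521), and without vehicle 1 (0.0944), vehicle 2 (0.0712) or vehicle 3 (0.0559). SLC25A1, the citrate carrier that feeds fatty acid synthesis, had 19.3, 19.6, 20.1, 20.5 and 31.0 CPM in doxorubicin, against 14.6, 16.6 and 12.3 CPM in vehicle. The groups did not overlap, and the log2 fold change of 0.60 (SE 0.20) missed the threshold (adjusted p = 0.0557) but passed without doxorubicin 5 (0.45, SE 0.15, adjusted p = 0.0384). SLC25A10, the dicarboxylate carrier, had 4.03 ± 1.99 CPM in doxorubicin and 3.05 ± 0.781 CPM in vehicle (log2 fold change 0.40, SE 0.45, adjusted p = 0.538).

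SLC25A20, which exchanges acylcarnitines for carnitine on the way to fatty acid oxidation (chromosome 13, 31523820 to 31553289), fell. It had 37.4, 36.8, 28.7, 38.1 and 36.6 CPM in doxorubicin 1 to 5, against 49.6, 57.8 and 54.0 CPM in vehicle 1 to 3. Doxorubicin 3 was the lowest and the other doxorubicin libraries lay close together below vehicle (log2 fold change -0.60, SE 0.14, adjusted p = 0.0169). The call was lost under library-size scaling (-0.25, adjusted p = 0.173) and without vehicle 1 (0.0559), vehicle 2 (0.0596) or vehicle 3 (0.0720). Of 6 partners in the carnitine shuttle 1 rose, CPT1C, an isoform known mainly from brain, at 1.27 ± 0.460 CPM in doxorubicin and 0.260 ± 0.111 CPM in vehicle (log2 fold change 2.26, SE 0.56, adjusted p = 0.0201). CPT1C had few reads, 126 in doxorubicin and 11 in vehicle, and its call was lost without the density trend (0.0522). With 1 library left out, the CPT1C call held in 5 of 8 fits (adjusted p up to 0.0775, without vehicle 1). CPT1B, the muscle enzyme that makes acylcarnitines, stood at 316 ± 132 CPM in doxorubicin and 470 ± 63.0 CPM in vehicle (adjusted p = 0.232). SLC25A47, a carrier known from liver, had 1.11 ± 0.427 CPM in doxorubicin and 0.586 ± 0.327 CPM in vehicle (adjusted p = 0.227).

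Both called relatives of the uncoupling proteins fell. SLC25A27 (chromosome 7, 41426161 to 41457887), also known from brain, had 9.49, 4.50, 6.91, 6.85 and 4.75 CPM in doxorubicin, against 16.8, 14.9 and 18.1 CPM in vehicle. The gap between the groups was wider than the spread within either (log2 fold change -1.35, SE 0.25, adjusted p = 0.00882). With 1 library left out its adjusted p stayed at or below 0.0492. SLC25A30 (chromosome 11, 21848242 to 21872781) had 265, 176, 133, 249 and 103 CPM in doxorubicin, against 353, 369 and 401 CPM in vehicle. Doxorubicin 5 and 3 were the lowest and no doxorubicin library reached the vehicle range (log2 fold change -1.02, SE 0.30, adjusted p = 0.0350). This call was lost under library-size scaling (-0.67, adjusted p = 0.0941), without the density trend (0.0620), and without vehicle 1 (0.0996), vehicle 2 (0.0882), vehicle 3 (0.118), doxorubicin 2 (0.0693) or doxorubicin 3 (0.0684). SLC25A14, another of these relatives, had 4.60 ± 0.844 CPM in doxorubicin and 3.66 ± 0.791 CPM in vehicle (adjusted p = 0.364). UCP2, an uncoupling protein of the same family under another name, rose, with 7.32 ± 0.918 CPM in doxorubicin and 3.18 ± 0.567 CPM in vehicle (log2 fold change 1.20, SE 0.23, adjusted p = 0.00912; 0.0511 without vehicle 1).

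**Figure D4:**
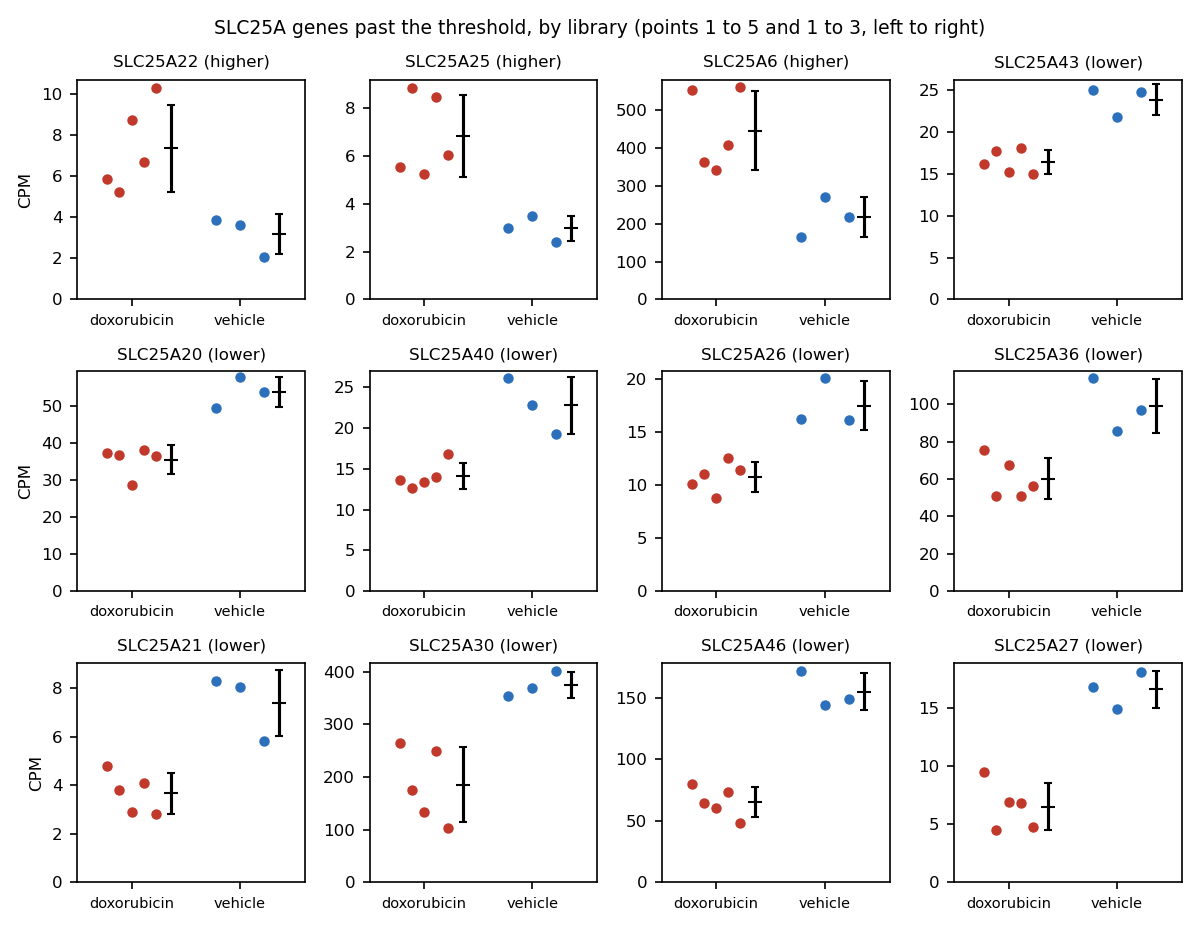
CPM of the 12 SLC25A genes past the threshold in each library, with doxorubicin 1 to 5 left of vehicle 1 to 3 and bars for mean ± SD, on axes that start at 0. In none of the 12 do the groups overlap, and for SLC25A46 the highest doxorubicin library is at 79.7 CPM and the lowest vehicle library at 144 CPM.

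SLC25A46, an outer membrane protein of mitochondrial fission and lipid exchange whose loss causes nerve disease in humans (chromosome 2, 115529662 to 115555441), fell as well. It had 79.7, 64.4, 60.2, 73.7 and 48.5 CPM in doxorubicin, against 172, 144 and 149 CPM in vehicle. Each doxorubicin library was well below the lowest vehicle library (log2 fold change -1.25, SE 0.18, adjusted p = 0.00525), and with 1 library left out the adjusted p stayed at or below 0.0384. SLC25A43, a carrier of unknown substrate (chromosome X, 97868804 to 97906771), had 16.2, 17.7, 15.2, 18.1 and 15.0 CPM in doxorubicin, against 25.1, 21.8 and 24.7 CPM in vehicle. The groups did not overlap (log2 fold change -0.54, SE 0.14, adjusted p = 0.0227), and the call was lost under library-size scaling (-0.19, adjusted p = 0.340) and without vehicle 1 (0.0928) or vehicle 3 (0.0941). It overlaps AKAP17B on the other strand, which had 186 reads over all libraries. SLC25A43 lies 12523 bases before SLC25A5 on the same strand, which did not pass and had a fold change of the other sign. SLC25A34, another orphan, ranged from 23.2 to 58.4 CPM in doxorubicin and from 40.7 to 83.4 CPM in vehicle (adjusted p = 0.287), and SLC25A35 had 1.59 ± 0.424 CPM in doxorubicin and 1.29 ± 0.438 CPM in vehicle (adjusted p = 0.618).

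Of the 7 tested carriers of cofactors, coenzyme A and NAD 1 fell and 6 did not pass. SLC25A26 imports S-adenosylmethionine, the methyl donor for mitochondrial RNA and protein (chromosome 13, 47743476 to 47909910). It had 10.1, 11.0, 8.78, 12.6 and 11.5 CPM in doxorubicin, against 16.2, 20.2 and 16.1 CPM in vehicle. The groups did not overlap (log2 fold change -0.70, SE 0.17, adjusted p = 0.0191). The call was lost under library-size scaling (-0.34, adjusted p = 0.136), without the density trend (-0.41, adjusted p = 0.164), and without vehicle 1 (0.0618), vehicle 2 (0.0738) or vehicle 3 (0.0629). SLC25A26 overlaps LRIG1 on the other strand, which had far more reads and did not pass (log2 fold change 0.06, SE 0.36, adjusted p = 0.922). The NAD carrier SLC25A51 had 57.4 ± 5.62 CPM in doxorubicin and 65.2 ± 3.10 CPM in vehicle (adjusted p = 0.326). The coenzyme A carrier SLC25A42 had 9.68 ± 1.70 CPM in doxorubicin and 7.32 ± 0.497 CPM in vehicle (adjusted p = 0.166) and passed as higher without doxorubicin 5 (log2 fold change 0.51, SE 0.16, adjusted p = 0.0393). SLC25A16, SLC25A17 and SLC25A32 had log2 fold changes from -0.07 to 0.27 and adjusted p from 0.639 to 0.887.

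SLC25A36, a carrier of pyrimidine nucleotides for mitochondrial DNA and RNA (chromosome 13, 81750189 to 81791869), had 75.5, 51.1, 67.3, 50.8 and 56.2 CPM in doxorubicin, against 114, 85.9 and 97.0 CPM in vehicle. No doxorubicin library reached the vehicle range (log2 fold change -0.72, SE 0.18, adjusted p = 0.0200). The call was lost under library-size scaling (-0.36, adjusted p = 0.161), without the density trend (-0.48, adjusted p = 0.0630), and without vehicle 1 (0.0963) or vehicle 3 (0.0739). SLC25A33, which carries the same kind of nucleotide, had 6.95 ± 1.44 CPM in doxorubicin and 9.79 ± 1.42 CPM in vehicle (log2 fold change -0.49, SE 0.22, adjusted p = 0.121).

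Of the 6 tested carriers of other amino acids and glutathione 1 fell and 5 did not pass. SLC25A40, a glutathione carrier (chromosome 9, 92481524 to 92526729), had 13.6, 12.6, 13.4, 14.0 and 16.9 CPM in doxorubicin, against 26.2, 22.9 and 19.3 CPM in vehicle. The doxorubicin libraries lay close together below all vehicle libraries (log2 fold change -0.69, SE 0.16, adjusted p = 0.0163). The call was lost under library-size scaling (-0.34, adjusted p = 0.147) and without vehicle 1 (0.0818). It overlaps DBF4 and RUNDC3B on the other strand, which had 378 and 198 reads over all libraries. SLC25A39, the better known glutathione importer, had 35.9 ± 4.19 CPM in doxorubicin and 30.8 ± 5.64 CPM in vehicle (adjusted p = 0.349). SLC25A29, a carrier of basic amino acids, stood at 40.8 ± 12.8 CPM in doxorubicin and 23.8 ± 5.44 CPM in vehicle (log2 fold change 0.78, SE 0.28, adjusted p = 0.0638), and without doxorubicin 5 it passed as higher (0.92, SE 0.21, adjusted p = 0.0105). It also passed as higher after removal of the density trend (0.94, adjusted p = 0.0392) and under library-size scaling (1.12, adjusted p = 0.0131). The ornithine carrier SLC25A15 had 6.71 ± 1.15 CPM in doxorubicin and 5.02 ± 1.28 CPM in vehicle (adjusted p = 0.218). The branched-chain amino acid carrier SLC25A44 had 22.2 ± 4.51 CPM in doxorubicin and 26.7 ± 1.67 CPM in vehicle (adjusted p = 0.318), and the glycine carrier SLC25A38, needed for haem synthesis, 24.0 ± 2.50 CPM in doxorubicin and 23.8 ± 2.84 CPM in vehicle (adjusted p = 0.957). The iron carriers SLC25A28 and SLC25A37 did not pass, with 30.1 ± 5.0 CPM in doxorubicin and 27.7 ± 5.29 CPM in vehicle (adjusted p = 0.667) and 19.9 ± 2.00 CPM in doxorubicin and 21.9 ± 0.151 CPM in vehicle (adjusted p = 0.474).

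The doxorubicin libraries were not alike in these genes. Doxorubicin 3 and doxorubicin 5 were the lowest pair among the 5 doxorubicin libraries for 15 of the 41 tested carriers, against 20% of all tested genes, and the 15 included SLC25A4, SLC25A3, SLC25A11, SLC25A12, SLC25A20, SLC25A30, SLC25A34 and SLC25A46. This pair was singled out after the values were seen, and no test was made. The sum of cardiomyocyte markers was also lowest in the same libraries, at 60256, 67228, 43978, 68276 and 37571 CPM in doxorubicin 1 to 5. Of these markers TNNT2, ACTC1 and MYL2 did not have doxorubicin 3 and 5 as their lowest pair. The sum of fibroblast markers was highest there, at 2820, 4633, 7225, 2460 and 31363 CPM in doxorubicin 1 to 5. PDGFRA was instead lowest in doxorubicin 3 (9.62 CPM), and DCN had 294 CPM in doxorubicin 3 and 408 CPM in doxorubicin 1. The part of either marker list in this pattern was not tested. Doxorubicin 5 was the highest of the 5 libraries for 14 members and the lowest for 15, against 33.1% and 33.1% of all tested genes.

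**Figure D5:**
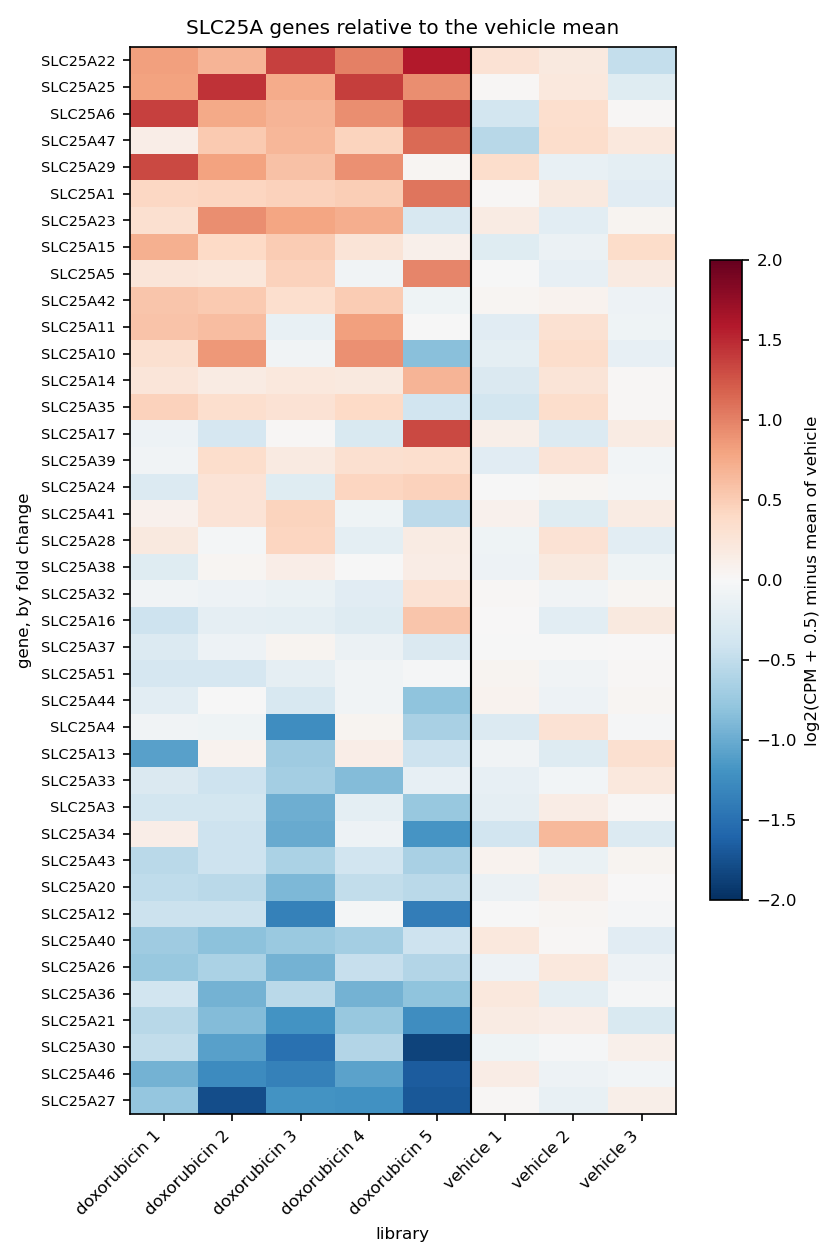
Log2(CPM + 0.5) of each of 40 tested SLC25A genes minus its mean over vehicle, with doxorubicin libraries left of vehicle libraries and genes ordered by fold change. The 15 genes that are lowest in doxorubicin 3 and 5 include the abundant SLC25A4, SLC25A3 and SLC25A12, and SLC25A17 is high in doxorubicin 5 alone.

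Genes that work beside the carriers, taken from 6 lists of 48 tested genes, had 3 higher, 12 lower and 33 that did not pass, with a median log2 fold change of -0.30. Higher calls were 6.25% of the 48 against 13.6% of all tested genes, and lower calls were 25% against 11.3%. The list of other mitochondrial carriers and carrier relatives held uncoupling proteins, pyruvate carriers and sideroflexins of the inner membrane and the MTCH proteins of the outer membrane. Of its 10 tested genes 1 rose (UCP2) and 4 fell (MPC1, MPC2, MTCH2 and SFXN4). MTCH2, a carrier relative that inserts proteins into the outer membrane, had 110 ± 14.7 CPM in doxorubicin and 171 ± 12.7 CPM in vehicle (log2 fold change -0.64, SE 0.16, adjusted p = 0.0201). SFXN4, of the sideroflexins, had 28.3 ± 8.86 CPM in doxorubicin and 54.5 ± 1.83 CPM in vehicle (log2 fold change -0.95, SE 0.24, adjusted p = 0.0224). Newly made carriers reach the inner membrane through the TOM70 receptor and the TIM22 complex, and of 11 genes of that route 4 fell and 7 did not pass. TIMM9, a chaperone of the intermembrane space, had 27.8 ± 4.08 CPM in doxorubicin and 51.4 ± 7.03 CPM in vehicle (log2 fold change -0.88, SE 0.16, adjusted p = 0.00885). TOMM70, the receptor, had 112 ± 25.5 CPM in doxorubicin and 200 ± 16.3 CPM in vehicle (log2 fold change -0.84, SE 0.20, adjusted p = 0.0188), and TOMM20 and TIMM8A fell too. Of 5 genes of the outer membrane channel and the permeability pore, TSPO rose and PPIF and VDAC2 fell. PPIF, the cyclophilin that sensitises the pore, had 77.7 ± 41.5 CPM in doxorubicin and 186 ± 13.7 CPM in vehicle (log2 fold change -1.26, SE 0.39, adjusted p = 0.0431). TSPO, a cholesterol-binding protein of the outer membrane, had 124 ± 59.9 CPM in doxorubicin and 40.1 ± 28.2 CPM in vehicle (log2 fold change 1.63, SE 0.49, adjusted p = 0.0382). For TSPO, vehicle 2 at 72.7 CPM lay close to the lowest doxorubicin library at 77.5 CPM. With 1 library left out, the calls of TSPO and PPIF held in 4 and 3 of 8 fits (adjusted p up to 0.145 and 0.126). Among 8 nuclear receptors, coactivators and factors of mitochondrial genes GABPA fell and 7 did not pass. The calls of GABPA, VDAC2 and PPIF were lost under library-size scaling (adjusted p = 0.582, 0.195 and 0.0866). They were also lost without the density trend (0.242, 0.126 and 0.0731). The calls of MTCH2, SFXN4, TOMM20, TOMM70 and TIMM8A were likewise lost under library-size scaling (adjusted p = 0.161, 0.0665, 0.0602, 0.0673 and 0.0617). Without the density trend these carrier relatives and import genes kept their lower calls. MPC1, MPC2, TIMM9 and MDH1 stayed lower in both settings. ESRRA, which encodes ERRα and is named here because of the study's title, with its values already seen, had 167 ± 54.9 CPM in doxorubicin and 161 ± 47.7 CPM in vehicle (adjusted p = 0.907). Under library-size scaling the 48 had 7 higher and 4 lower, beside 27.4% higher and 3.34% lower among all tested genes. Without vehicle 1, vehicle 2 or vehicle 3, 2, 6 or 1 of them passed, beside the 4.19%, 12.7% and 4.61% of all tested genes given above.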

How the data were processed

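Heart RNA of 8 libraries was sequenced after extraction on silica columns and a SMARTER mRNA kit, per the labels' protocols. The authors deposited raw counts per gene with gene lengths, and the 8 count columns were matched to samples by title. Aligner, counter, strand setting and the handling of reads with several matches: not given in the sources used here. For the 14 members that overlap a row on the opposite strand, reads cannot be told apart from that row's. Members and lists were chosen with earlier results of these data known. Of the tested members 1 enters the counts and medians but is not reported here. Any other member could be named, with per-library values for 8 carriers in any case and for all called members. From each pathway list up to 4 genes with the smallest p could be named. Within-group pairs of libraries differed by 17.2 to 284 times sampling noise (chi-square per degree of freedom), so none was taken for a copy.

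The fit used edgeR 4.0.16 under R 4.3.3: filterByExpr (minimum count 10, total 15), TMM, and the robust two-sided quasi-likelihood test on treatment, with Benjamini-Hochberg adjustment over 14938 genes at 0.05. SE is the log2 fold change over the root of F. Shares were compared by exact permutation over 56 splits (scipy 1.17.1). In simulated counts with 50 genes at each fold size among 14938, the test recovered 2% at 1.5-fold, 46% at 2-fold, 94% at 4-fold and 100% at 8-fold, with 7 false calls. Only these genes were changed there, with spread taken from a fitted trend, whereas 3714 genes passed in the data. These rates may therefore not hold for the calls above. Alternatives were other scalings (RLE, library size only, TMM without mitochondrial DNA, haemoglobin and the 20 most abundant genes), other filters (none, or CPM over 1 in 3 libraries), DESeq2 1.42.0, voom with quality weights from limma 3.58.1, the replicate number as a block, a correction for gene density (lowess span 0.3, coding genes inside 500 kb), and each library left out. Figures were drawn in matplotlib 3.10.9.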

Additional observations from a re-analysis of the deposited data

Results flagged for a closer look

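Within the 5 doxorubicin libraries, 7 values stood far from the other 4, with a gap above 0.71 of the group's range, among 45 sets of values examined (41 genes, 3 shares and the family sum). For independent normal values the rule flags about 1 set in 20. The share it flags among all tested genes is not given here, so no excess in the carriers can be read from these 7. Doxorubicin 5 also resembled its group least over all tested genes (mean r 0.912). In doxorubicin 5, SLC25A1 was high at 31.0 CPM (19.3 to 20.5 CPM in the other doxorubicin libraries), SLC25A14 at 6.10 CPM (4.09 to 4.37), SLC25A16 at 10.9 CPM (5.29 to 6.31), SLC25A17, a peroxisomal carrier, at 25.5 CPM (7.78 to 10.1) and SLC25A32 at 10.7 CPM (7.26 to 8.19). SLC25A35 was low there at 0.850 CPM (1.63 to 1.91). SLC25A20 was low in doxorubicin 3 at 28.7 CPM (36.6 to 38.1). Of these genes SLC25A20 passed the test.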

How the results depend on the processing

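RLE factors, TMM without mitochondrial DNA, haemoglobin and the most abundant genes, no filter and the CPM filter each kept all 12 calls and added none. Scaled by library size only, 4093 genes were higher and 499 lower, 11 members were higher and 2 lower, and the median of members was 0.33. DESeq2 gave 5 higher members, adding SLC25A1 (adjusted p = 0.0317) and SLC25A29 (0.0301). Limma voom with quality weights called 8087 genes (4053 higher, 4034 lower), 23 members (10 higher) and 27 genes of the pathway lists, with a median of members of -0.13. Without the density trend 5 members were lower.

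Leaving out 1 library gave 649 to 4737 called genes (334 to 2472 higher, 315 to 2265 lower), 2 to 16 members (0 to 7 higher, 2 to 9 lower), 1 to 18 genes of the pathway lists and a median of members from -0.10 to 0.013. Without vehicle 1 and without vehicle 3, where edgeR called no member higher, 5 and 4 members had a positive fold change at an unadjusted p under 0.05, and no other tool was run on those subsets. The SLC25A4 share differed by -10.6 to -7.89 percentage points, and no such subset can reach an exact p of 0.05.

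Same-numbered libraries did not deviate together over all tested genes (r = 0.043, 0.0020 and -0.0031). The numbers thus gave no sign of a pairing, though these correlations cannot exclude one. With the replicate number as a block, over the 6 libraries numbered 1 to 3, 3 members were higher and 8 lower, with a median of -0.10. Of the 12 calls, 9 were kept, SLC25A6 (adjusted p = 0.0531), SLC25A22 (0.0756) and SLC25A43 (0.0554) did not pass, and SLC25A23 (0.0474) and SLC25A29 (0.0104) passed. The same libraries without the block gave 5 higher and 9 lower, with all 12 calls kept and SLC25A23 and SLC25A29 added, and a median of -0.092. Paired over these numbers the SLC25A4 share differed by -9.08 percentage points (sign-flip exact p = 0.250, the smallest possible).

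Signs turned only for members that had not passed. Scaled by library size only, log2 fold changes became 0.00017 for SLC25A4, 0.29 for SLC25A16, 0.31 for SLC25A32, 0.22 for SLC25A37, 0.087 for SLC25A44 and 0.17 for SLC25A51. Without the density trend SLC25A10 had -0.053, SLC25A32 0.17, SLC25A39 -0.090 and SLC25A41 -0.13, and by limma voom SLC25A17 had -0.34. With the replicate block SLC25A17 had -0.14, SLC25A24 -0.080 and SLC25A38 -0.018, and without the block these were -0.14, -0.057 and -0.015. With 1 library left out SLC25A16 ran from -0.28 to 0.038, SLC25A17 from -0.19 to 0.40, SLC25A32 from -0.14 to 0.0064, SLC25A38 from -0.040 to 0.11 and SLC25A41 from -0.076 to 0.33. The causes were not tested.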

Other observations

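Ratios of carriers with the same or linked substrates were taken within libraries for the pairs given here. They were chosen after the values were seen and were not tested. Counts of SLC25A12 over counts of SLC25A11, both carriers of the malate-aspartate shuttle, were 0.823, 0.793, 0.714, 0.904 and 0.633 in doxorubicin 1 to 5, against 1.91, 1.36 and 1.72 in vehicle 1 to 3. The groups did not overlap, although neither gene passed by itself. Counts of SLC25A40 over counts of SLC25A39, both glutathione carriers, were 0.468, 0.325, 0.385, 0.366 and 0.437 in doxorubicin, against 1.01, 0.618 and 0.655 in vehicle, again with no overlap. Counts of SLC25A36 over SLC25A33 (6.5 to 11.4 in doxorubicin, 8.53 to 13.2 in vehicle) and of SLC25A28 over SLC25A37 (1.19 to 1.74 in doxorubicin, 1.07 to 1.54 in vehicle) overlapped between the groups. These ratios do not depend on library scaling, but they were not taken after removal of the density trend. That removal changed the log2 fold change of SLC25A12 from -0.63 to -0.46 and of SLC25A11 from 0.40 to 0.077. It changed SLC25A40 from -0.69 to -0.56 and SLC25A39 from 0.22 to -0.090. SLC25A11 also overlaps RNF167 on the other strand, as given above.

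A row described in the deposited table as a mitochondrial ornithine transporter, LOC100523054, lies outside the naming rule and had 14 reads in doxorubicin and 2 in vehicle.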
